A study of Drosophila melanogaster with 2 samples.

Results

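The genes tou, trx, ash1, brm, osa, mor, kis, Iswi, Acf and E(bx) are 10 Drosophila melanogaster genes of the trithorax group or of the nucleosome remodelling complexes. Peaks of the zinc finger protein CG4360 were located along them. The 10 were chosen by name, with earlier results of these data known, from 13968 protein-coding genes on the major chromosome arms. Chromatin immunoprecipitation with an anti-GFP antibody was done on whole embryos, 0 to 24 h after egg laying, of a transgenic strain, CG4360-GFP, that makes CG4360 fused to enhanced green fluorescent protein. The labels do not name the promoter that drives the fusion or say whether the unmodified protein is also made. There was 1 group with 2 biological replicates, and an untagged or input control was not analysed here. The embryos held all cell types at all stages of that day, so a peak cannot be assigned to a tissue or an hour. A call belonged to a gene when its summit lay in the gene or within 2 kb of either end. By this rule 42 of the 5697 peaks of the conservative list, the list that required rank agreement between the true replicates, fell to 8 of the 10 genes.

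Trithorax group genes were found in flies as genes that keep homeotic genes active, in opposition to the Polycomb group. Some of their products methylate histones, as trx and ash1 do. Others are parts of machines that use ATP to slide or evict nucleosomes: the Brahma complexes (brm, osa, mor), the CHD family (kis), and the complexes built around the ISWI ATPase (Iswi with Acf in ACF and CHRAC, and with E(bx) in NURF). The product of tou has the domain layout of the large subunits that partner ISWI-type ATPases.

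The 7-base word CAACAAC, searched on both strands (GTTGTTG on the other) with overlaps allowed, was present within 50 bp of the summit in 22 of the 42 peaks. The DNA at the strongest peaks shows both kinds of site. The sequences below are from the RefSeq copy of the release 6 assembly (dm6), plus strand, with the word in capitals. They hold the summit and 50 bases to each side, except for trx. For trx 30 bases at chr3R:14279092-14279121 are shown, because its strongest peak is in a 5′ UTR. The others are ash1 at chr3L:19590573-19590673, brm at chr3L:15982964-15983064, a first osa site at chr3R:17713039-17713139, a second at chr3R:17704379-17704479, kis at chr2L:224485-224585 and Acf at chr3R:31799048-31799148. They are shown because 4 of them carry the repeat and 3 strong ones do not.
trx: caGTTGTTGTTGTTGTTGctgctgctgcgg
osa, first site: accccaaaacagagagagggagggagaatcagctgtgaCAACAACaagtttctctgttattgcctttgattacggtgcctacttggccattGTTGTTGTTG
kis: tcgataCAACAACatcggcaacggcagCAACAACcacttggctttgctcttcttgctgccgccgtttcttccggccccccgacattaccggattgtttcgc
Acf: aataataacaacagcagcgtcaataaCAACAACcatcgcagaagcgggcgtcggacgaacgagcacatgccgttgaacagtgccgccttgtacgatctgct
ash1: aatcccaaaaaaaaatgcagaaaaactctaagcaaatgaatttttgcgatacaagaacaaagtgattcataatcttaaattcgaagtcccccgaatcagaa
brm: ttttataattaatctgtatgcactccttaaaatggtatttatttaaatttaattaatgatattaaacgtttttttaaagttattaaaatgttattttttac
osa, second site: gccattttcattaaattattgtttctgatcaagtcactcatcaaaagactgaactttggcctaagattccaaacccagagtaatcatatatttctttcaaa

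The trx stretch runs TTG into CTG, which read on the other strand is CAG followed by CAA. It holds 8 such units (CAA or CAG) in a row, and within 50 bp of the summit there were 5 copies of the word. The osa first site has 3 copies and the kis site 2. The last 3 sequences have no copy and are richer in A and T, with GC contents of 31.7% at ash1, 14.9% at brm and 31.7% at osa.

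The word was read against the whole list, in which 45.1% of the 5692 peaks on the major arms carried it. The share at the 10 genes was 52.4% (22 of 42, exact binomial 95% interval 36.4 to 68.0). The interval includes the share of the whole list. It treats the peaks as independent, though 15 were at tou, 12 at osa and 9 at kis, and it is no test. In windows of the same size centred 500 bp to either side of the summits, 4 of 84 at the 10 genes (4.76%) and 4.82% over all peaks had the word. Among the 13 peaks at the 10 genes with a signal value of 250 or more, 10 had the word, against 82.7% of 969 such peaks in the whole list. The signal value is the authors' own measure of each peak, on a scale that neither the labels nor the files state. Its median was 168.5 for the 22 peaks with the word and 83.4 for the 20 without, and the corresponding medians over all peaks were 154.9 and 82.9.

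The peaks were unevenly spread over the genes. In the conservative list tou had 15, osa 12, kis 9, trx 2, and ash1, brm, Iswi and Acf 1 each, while mor and E(bx) had none. Over all protein-coding genes, 31.2% had at least 1 conservative peak by the same rule. That share depended on length: it was 64.5% for the 1020 genes of 20 kb or more and 28.6% for shorter genes. All 4 of the genes of 20 kb or more (tou, trx, osa and kis) had a peak, as did 4 of the 6 shorter ones. The median length was 12888 bp for the 10 genes and 2165 bp for all protein-coding genes. Only 12 genes had more conservative peaks than tou, 22 had more than osa and 44 had more than kis. Per 10 kb of gene and flank, tou had 3.52 peaks, osa 3.47, kis 2.04 and trx 0.73, against a median of 0.30 for the 1020 long genes. Among those long genes 5 were denser than tou, 6 denser than osa, 51 denser than kis and 263 denser than trx. Because the genes were chosen with earlier results of these data known, these ranks describe them and are no test.

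**Figure D1:**
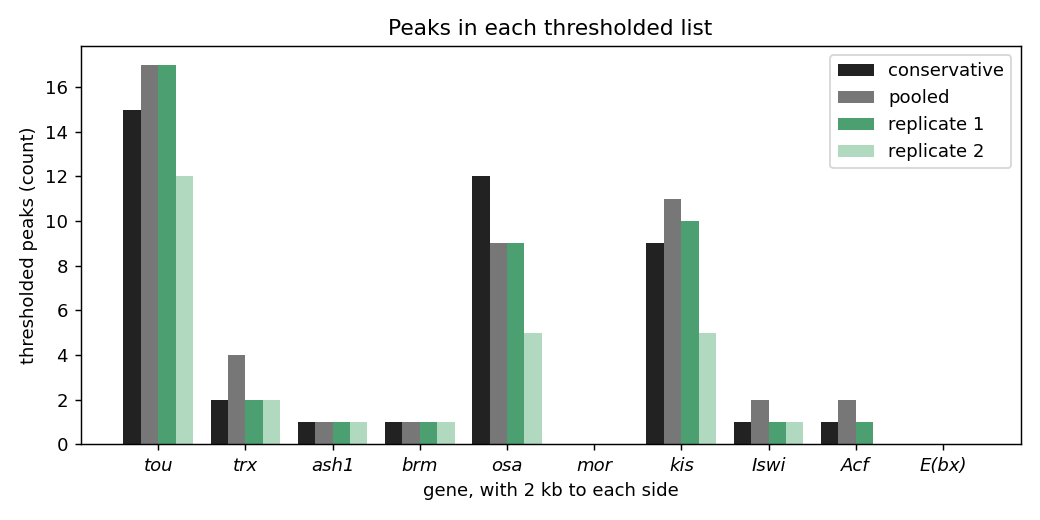
Number of thresholded peaks (vertical axis) in each of the 10 genes with 2 kb to each side (horizontal axis), with 1 bar for each of the 4 lists. The genes tou, osa and kis hold most of the peaks in every list, and mor and E(bx) have no bar.

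The other thresholded lists gave the same set of genes with few changes. The pooled list, also made from both replicates, had 47 peaks in 8 of the 10 genes, replicate 1 had 42 in 8 and replicate 2 had 27 in 7. In those lists 33.5%, 26.6% and 22.4% of all protein-coding genes had a peak. The counts in the pooled list, replicate 1 and replicate 2 were 17, 17 and 12 for tou, 9, 9 and 5 for osa, 11, 10 and 5 for kis, and 4, 2 and 2 for trx. Iswi had 2, 1 and 1, Acf had 2, 1 and 0, and ash1 and brm had 1 in each. The ranked lists, which also hold calls that did not pass the threshold, had 288 calls at the 10 genes in the conservative, 293 in the pooled, 262 in the replicate 1 and 231 in the replicate 2 list. In the conservative ranked list these were 65 for tou, 56 for kis, 48 for osa, 41 for trx, 19 for brm, 16 for Iswi, 15 for Acf, 13 for ash1, 11 for mor and 4 for E(bx).

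Of the 42 conservative peaks, 38 lay inside the gene they were assigned to. By position, 22 were in introns, 13 within 500 bp of an annotated transcript start, 4 in exons of non-coding genes, 2 in coding sequence and 1 in a 5′ UTR. The share near a start was 31.0% (95% interval 17.6 to 47.1), against 41.3% in the whole list. Of the 13 peaks near a start, the nearest start was of the assigned gene for 6 and of another gene for 7. The 7 include the brm peak, which was also within 500 bp of the 5′ end of brm, at 145 bp. Some of the 42 were not separate sites. In the conservative ranked list they were matched to 39 distinct pairs of replicate intervals. The peaks of 2.33 at tou and 5.60 at kis lay beside a stronger peak and were matched to the same replicate calls as it was. A tou peak of 21.9 lay in the same interval as a stronger one but had its own summit in each replicate, with 143.6 in replicate 1 and 41.1 in replicate 2, and it is counted as a peak of its own.

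Of the histone methyltransferase genes, trx encodes the fly counterpart of the mammalian MLL enzymes, which methylate lysine 4 of histone H3. Its strongest peak (chr3R:14278911-14279256) had a signal value of 820.8, with 495.2 in replicate 1 and 318.1 in replicate 2. It lay in a 5′ UTR exon, 7805 bp from the 5′ end of the gene, at the repeat printed above. The other peak (chr3R:14277877-14278266) lay in the neighbouring intron and was 6.08 times weaker, at 134.9, with 66.4 in replicate 1 and 62.2 in replicate 2. Its window had no copy of the word and a GC content of 17.8%. The strongest peak of trx was therefore the one at the repeat, and it was present in every thresholded list.

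The gene ash1 encodes a methyltransferase of lysine 36 of histone H3. The single peak at ash1 (chr3L:19590485-19590741) had a signal value of 758.8, with 328.0 in replicate 1 and 434.5 in replicate 2. Its summit was 8132 bp downstream of the 5′ end of ash1, past the 3′ end of the gene, and 99 bp from a transcript start of the neighbouring gene CG14100. The strongest other call at ash1 had a signal value of 36.1 and did not pass the threshold. The rule assigns this peak to ash1 by distance alone, and the nearest start is that of CG14100.

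In the Brahma group, brm encodes the ATPase shared by the BAP and PBAP complexes. Its single peak (chr3L:15982935-15983079) had a signal value of 261.4, with 107.5 in replicate 1 and 154.3 in replicate 2. It lay 145 bp upstream of the 5′ end of brm and 121 bp from a start of the neighbouring gene Arl1. The other 18 calls there reached at most 48.6.

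The gene osa encodes the ARID-domain subunit found in BAP and not in PBAP. Its strongest peak (chr3R:17712948-17713232) was intronic, 5261 bp from the 5′ end of the gene, with a signal value of 651.2, 368.8 in replicate 1 and 278.4 in replicate 2. The second (chr3R:17704306-17704522) lay in an exon of the non-coding gene lncRNA:CR46035, which is inside osa, with a signal value of 360.0, 140.1 in replicate 1 and 213.2 in replicate 2. The third (chr3R:17700182-17700571) was 364 bp from a start of another non-coding gene, lncRNA:CR46036, with a signal value of 170.5 and 111.1 in replicate 1, and no replicate 2 call lay within 100 bp of it. The second was without the word and the other two had it. The remaining 9 peaks had signal values between 41.4 and 166.5, and over all 12 peaks 7 had the word.

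The chromodomain ATPase of the CHD7 and CHD8 type is encoded by kis. Its strongest peak (chr2L:224258-224742) had a signal value of 838.9, with 526.9 in replicate 1 and 308.9 in replicate 2. It lay 26288 bp into the gene, in an exon of the non-coding gene lncRNA:CR44222. The second (chr2L:250731-250999) lay 42 bp upstream of the 5′ end of the gene itself, with a signal value of 514.1, 350.0 in replicate 1 and 169.5 in replicate 2. The third (chr2L:223474-223680), 56 bp from a start of lncRNA:CR44222, had 223.2, with 116.1 in replicate 1 and 119.0 in replicate 2. The first and second had the word and the third did not. The remaining 6 peaks ranged from 5.60 to 118.6. Among them, a coding-sequence peak 35629 bp into kis had the longest run of CAA or CAG units of all 42 peaks, 14 units with 3 copies of the word. Its signal value was only 73.3, with 46.6 in replicate 1 and 29.2 in replicate 2, so the length of the run and the signal value did not go together there.

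**Figure D2:**
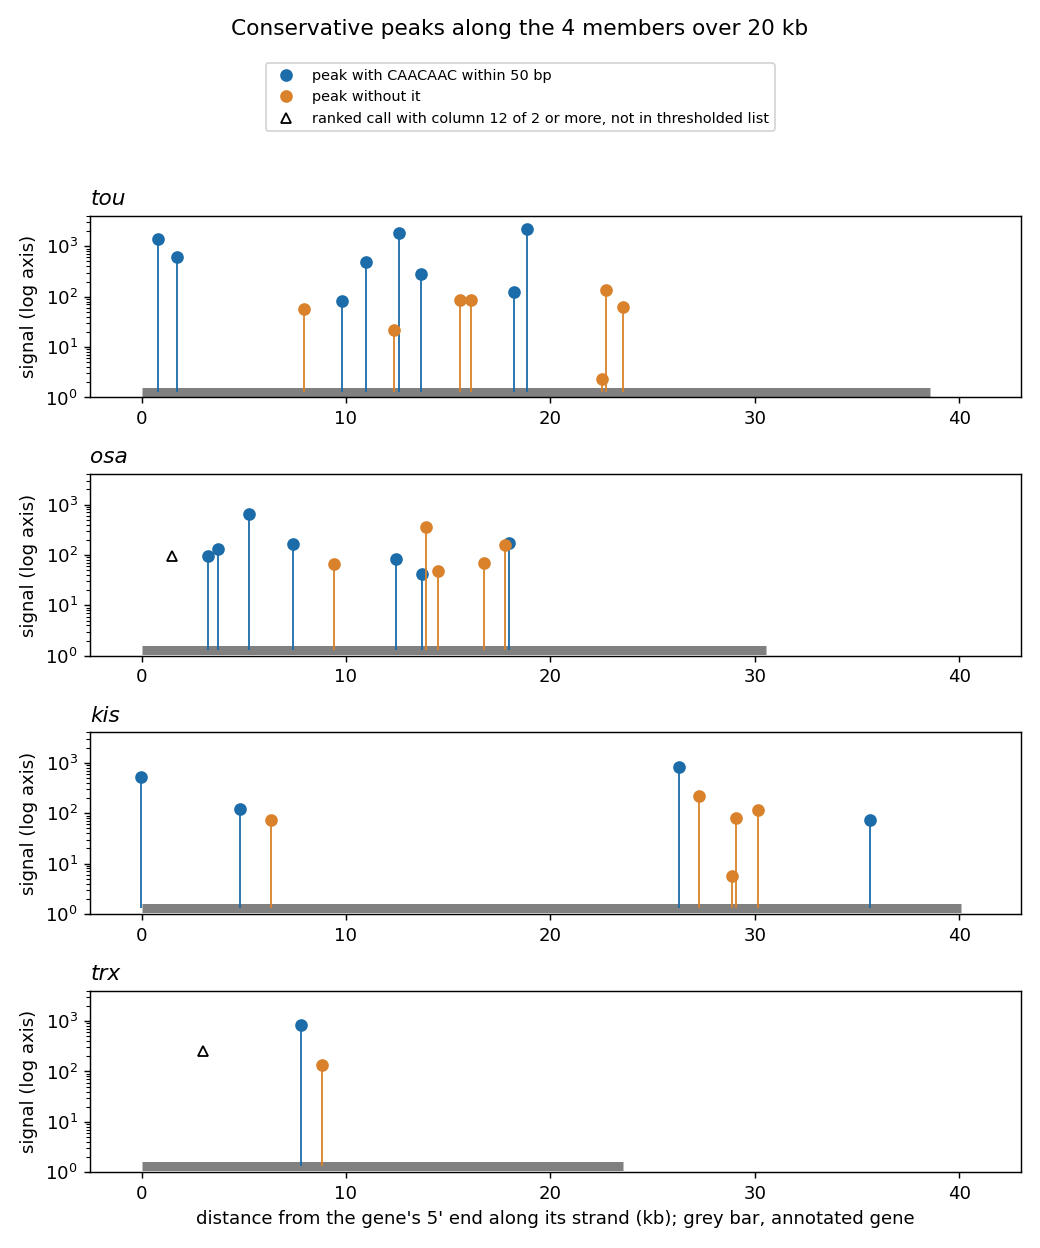
Signal value on a log axis (vertical) of each conservative peak against its distance in kb from the 5′ end of the gene (horizontal) for tou, osa, kis and trx, the 4 genes of 20 kb or more, with the gene as a grey bar. Blue peaks have CAACAAC within 50 bp of the summit, orange peaks do not, and open triangles are ranked calls with a −log10 IDR of 2 or more (column 12) that the thresholded list lacks. The highest point in each panel is blue, from 651.2 at osa to 2247 at tou.

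Among the genes of ISWI-type complexes, tou carried the highest signal values of the 10 genes. The gene lies on arm 2R and its strongest peak (chr2R:11596903-11597427) was intronic, 18871 bp from the 5′ end of the gene and 4048 bp from the nearest transcript start. Its signal value was 2247, with 1268 in replicate 1 and 979.5 in replicate 2, and its window held 5 copies of the word. The second (chr2R:11603188-11603815), also intronic, had 1832, with 1080 in replicate 1 and 721.7 in replicate 2, and 2 copies. The third (chr2R:11615061-11615426) lay 783 bp inside the 5′ end and had 1399, with 870.2 in replicate 1 and 515.8 in replicate 2, and 2 copies. No other peak of the 10 genes had a signal value as high as these 3.

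The next 3 peaks of tou, at 607.9, 477.9 and 282.0, each had 1 copy of the word. The other 9 ranged from 2.33 to 138.1, and 2 of these 9 had it. The 8 peaks of tou with the word had a median of 542.9, and the 7 without had a median of 63.4 and a highest value of 138.1. At kis the medians were 316.3 for the 4 with the word and 80.5 for the 5 without, and at osa 128.8 for 7 and 70.8 for 5. Each of these 3 genes thus had its higher median among the peaks with the word, as the whole list did. The peaks without the word include those of 2.33 and 21.9 at tou and 5.60 at kis. As stated above, these were not clear of a stronger peak, and their low values lower the medians without the word. At osa a peak with the word, of 41.4, also overlapped a stronger peak, of 360.0, and its low value enters the median with the word.

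Iswi encodes the ATPase itself. Its single conservative peak (chr2R:12635538-12635927) had a signal value of 145.1, with 89.4 in replicate 1 and 52.3 in replicate 2, and it had the word. It lay 938 bp upstream of Iswi and 51 bp from a start of Mvk. The single peak of Acf (chr3R:31798903-31799292), the gene for the large subunit that partners ISWI in ACF and CHRAC, lay in coding sequence 5117 bp from the 5′ end. It had 110.3, with 63.4 in replicate 1 and 38.6 in replicate 2, and replicate 2 had no thresholded peak there. E(bx), which encodes the largest subunit of NURF, had no peak in any thresholded list. Its strongest ranked calls had signal values of 63.8, 870 bp inside the gene, and 57.3, 114 bp upstream of a start. Their −log10 IDR values were 0.25 and 1.95, under the value of 2 at which the lists were cut.

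Some peaks were found in another list and not in the conservative one. The pooled list held 10 such peaks, with signal values from 2.54 to 81.6, and none had the word. Both replicates had a ranked call within 100 bp of the summit at 8 of them, and replicate 1 was higher at 4 and replicate 2 at 4. At tou, the pooled and replicate 1 lists had a peak 1 bp upstream of the 5′ end of the gene, without the word. Its signal value was 81.6 in the pooled list, with 60.4 in replicate 1 and 22.7 in replicate 2, and in the conservative ranked list its −log10 IDR was 1.35. At trx the pooled list added an intronic peak of 56.4, with 10.9 in replicate 1 and 45.4 in replicate 2, and a peak of 56.3 beside a start of red, with 35.8 in replicate 1 and 20.9 in replicate 2. At kis the pooled and replicate 1 lists had a peak near an internal start of the gene. In the pooled list it was 442 bp away and had a signal value of 72.6, with 57.7 in replicate 1 and 14.3 in replicate 2. Of the other peaks with both calls, tou had one of 69.9, with 41.6 in replicate 1 and 23.6 in replicate 2, and one of 47.3, with 16.9 in replicate 1 and 37.9 in replicate 2. The tou peak of 69.9 had a run of 6 CAA or CAG units in its window, though no copy of the word. The second one at kis, of 53.8, had 25.9 in replicate 1 and 28.0 in replicate 2, and one at Iswi, of 68.3, had 9.37 in replicate 1 and 19.6 in replicate 2. Among replicate peaks that the conservative list lacks, a kis peak of 34.4 in replicate 1 and a tou peak of 2.14 in replicate 2 had the word. The others did not.

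Along the gene, peaks lay more often toward the 5′ end at tou and osa and not at kis. In the 50% of the gene nearer the 5′ end were 12 of the 15 peaks of tou, 9 of 12 of osa, 2 of 2 of trx and 2 of 8 of kis. Over the 4 genes this was 25 of 37 (67.6%), near the 65.5% found over all protein-coding genes of 20 kb or more. The peaks of tou reached no farther than 23561 bp into a gene of 38561 bp, and those of osa no farther than 17973 bp into 30533 bp. At kis 5 peaks lay between 26288 and 30169 bp from the 5′ end, and no peak lay between 6336 and 26288 bp.

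The word was far more frequent in these genes than peaks were. Copies with starts within 50 bp of each other were counted as 1 cluster. The 10 genes with their flanks held 129 clusters, of which 24 (18.6%, 95% interval 12.3 to 26.4) had a conservative summit within 50 bp, against 6.46% of 42260 clusters on the major arms. Most of the 24 were at the genes with many peaks: 8 of 31 clusters at tou, 8 of 26 at osa and 5 of 32 at kis. At trx, Iswi and Acf it was 1 cluster each, and the other genes had none. The interval treats clusters as independent. By size, 8 of 82 clusters with 1 copy, 10 of 30 with 2 copies and 6 of 17 with 3 or more had one, against 2.82%, 14.6% and 32.9% on the arms. The share with a peak rose with the number of copies on the arms, and at the 10 genes the sizes with 2 and with 3 or more copies had shares of 33.3% and 35.3%, with intervals that overlap. Peaks also lay in genes without many clusters. Iswi had a peak at its only cluster, whereas E(bx) had 8 clusters with 10 copies and no peak, and trx had 15 clusters and a peak at 1 of them.

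A small group of calls met the IDR limit in a ranked list and was absent from the thresholded list of the same pair. Over the whole series these were 178 of 5875 calls with a −log10 IDR of 2 or more in the conservative pair (3.03%), 3.04% in the pooled pair, 3.34% in replicate 1 and 3.31% in replicate 2. At the 10 genes they numbered 4 of 46, 5 of 52, 6 of 48 and 3 of 30 in the same order. In every pair they lay at trx, osa and mor and at no other of the 10 genes. Per the text files deposited with the samples, the thresholded lists were derived from 1 file more than the ranked lists, and its content is not given there. Its part in these absences was not tested.

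At mor, which encodes the scaffold subunit of the Brahma complexes, these absences decide whether the gene has a peak. A call 195 bp inside the 5′ end (chr3R:15972523-15972912) had a signal value of 196.4, a −log10 IDR of 4.18, and 96.8 in replicate 1 and 103.6 in replicate 2. It was missing from the thresholded list in all 4 pairs. A second mor call, 34 bp upstream of the gene, had 66.8 and was missing in the conservative pair, with 68.7 in replicate 1. At trx an intronic call (chr3R:14283792-14283957) had 257.7, with 111.6 in replicate 1 and 152.0 in replicate 2. At osa a call in a 5′ UTR (chr3R:17716805-17716918) had 96.6, with 62.7 in replicate 1 and 41.7 in replicate 2. With the 4 calls added, the conservative list would have 46 peaks in 9 of the 10 genes.

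The windows of the mor and trx calls with the highest signal values, at chr3R:15972668-15972768 and chr3R:14283849-14283949 (release 6, plus strand), are shown because they would be the strongest peak of mor and the second strongest of trx. Capitals mark the word, which mor has in 2 overlapping copies and trx lacks.
mor: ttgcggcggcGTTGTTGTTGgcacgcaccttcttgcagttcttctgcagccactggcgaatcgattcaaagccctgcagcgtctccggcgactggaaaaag
trx: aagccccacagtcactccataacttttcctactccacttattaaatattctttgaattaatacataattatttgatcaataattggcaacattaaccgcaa

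The replicates were compared at each conservative peak through the strongest ranked call within 100 bp of its summit. A thresholded peak lay there in both replicates for 23 of the 42 peaks, in replicate 1 alone for 11, in replicate 2 alone for 1 and in neither for 7. These are 54.8%, 26.2%, 2.38% and 16.7%, against 48.1%, 16.2%, 8.31% and 27.4% of all 5692 peaks. The median conservative signal value was 282.0 for the 23 and 56.4 for the 7. The 7 include the peaks of 2.33 at tou and 5.60 at kis. Each shares its replicate calls with a neighbour, of 138.1 and 80.5, that had a thresholded peak in both replicates. The word was in 13 of the 23 (56.5%) and 0 of the 7, against 63.5% of all peaks with both replicates and 20.4% of those with neither. Of the 42 replicate 1 peaks of the 10 genes, 22 (52.4%) were matched in replicate 2, with 0.5 or more of each peak overlapping the other, against 54.3% of all replicate 1 peaks. Of the 27 replicate 2 peaks, 22 (81.5%, 95% interval 61.9 to 93.7) had a replicate 1 peak, against 66.5% overall.

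**Figure D3:**
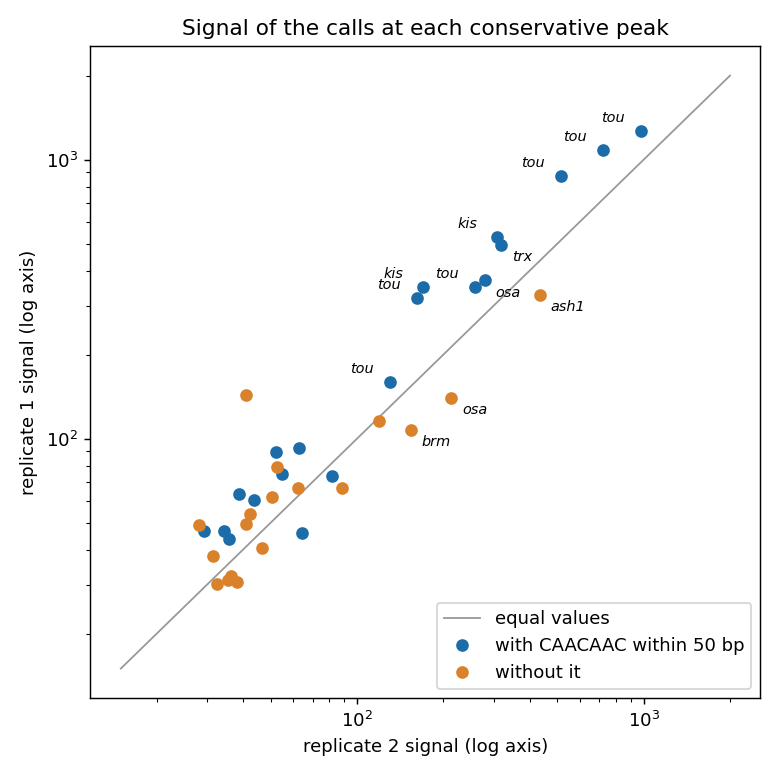
Signal value in replicate 1 (vertical, log axis) against replicate 2 (horizontal, log axis) of the calls at 38 conservative peaks of the 10 genes. Blue points have CAACAAC within 50 bp, orange points do not, the line marks equal values, and peaks with a conservative signal value above 250 carry the gene name. The named blue points lie above the line and the named orange points (ash1, osa and brm) below it.

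Sites with and without the word differed in which replicate was higher. Both replicates had a ranked call within 100 bp of the summit at 38 of the 42 peaks. Of the 20 with the word, replicate 2 was higher at 2, and the median log2 ratio of replicate 1 over replicate 2 was 0.51. Of the 18 without it, replicate 2 was higher at 10, and the median was −0.07. All 10 peaks with the word and a signal value of 250 or more were higher in replicate 1, while ash1, brm and the second site of osa, the 3 such peaks without it, were higher in replicate 2. Over all conservative peaks with a call in both replicates, 34.1% were higher in replicate 2, which was 18.1% of those with the word (median log2 ratio 0.39) and 49.4% of those without (0.01). The calls that the thresholded lists lack were mixed. Without the word, the trx call of 257.7 was higher in replicate 2, while another trx call, of 53.5 in the pooled pair, had 38.5 in replicate 1 and 23.8 in replicate 2. With the word, the mor call of 196.4 was higher in replicate 2 and the osa call of 96.6 in replicate 1. With 1 library per replicate, no error can be put on the ratio of a single peak.

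Base composition moved with this. The GC content of the window had a median of 49.0% in the 22 peaks with the word and 34.7% in the 20 without, against 46.5% and 41.6% in the whole list. At the 10 genes, replicate 2 was higher at 8 of the 12 peaks under 40% GC, none of which had the word, and at 4 of the 26 above. Over the whole list at 40 to 50% GC, replicate 2 was higher at 15.9% of 1291 peaks with the word and at 38.9% of 733 without. The part of base composition in the difference between the replicates was not tested. As a description over the 38 peaks, which share their 2 libraries, the Spearman correlation of GC content and log2 ratio was 0.48, and over all 5059 peaks it was 0.20.

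**Figure D4:**
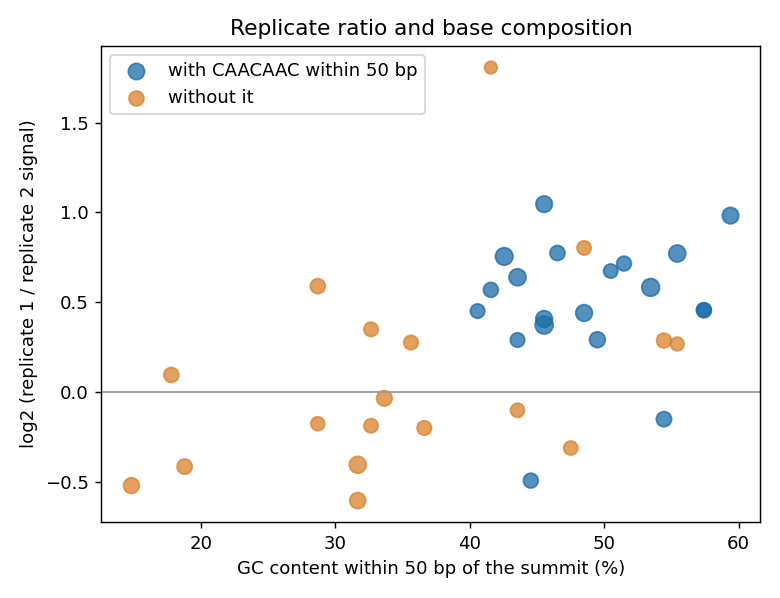
Log2 ratio of the replicate 1 over the replicate 2 signal value (vertical) against the GC content in percent within 50 bp of the summit (horizontal) for 38 conservative peaks of the 10 genes, with larger points for higher signal values. Blue points (with CAACAAC) lie above 40% GC and mostly above 0, and the points under 40% GC are all orange.

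The same counts were made for a wider list of 38 other trithorax group and remodeller genes. Of the 37 found in the annotation, 21 (56.8%) had at least 1 conservative peak, against 31.2% of all protein-coding genes, 64.5% of those of 20 kb or more and 28.6% of shorter ones. The median length of the 37 was 5101 bp. They had 75 peaks in all, of which 40 (53.3%) had the word, against 45.1% of the whole list. The 4 with the highest signal values were Mi-2, Caf1-55, tna and tara. Mi-2 encodes the ATPase of the NuRD complex and had 12 peaks, the strongest at 1135 with 606.5 in replicate 1 and 528.2 in replicate 2. Caf1-55 encodes a histone-binding subunit shared by several chromatin complexes. Its one peak, at 602.5, had no word, lay 128 bp from a start of Art3, and had 243.3 in replicate 1 and 364.5 in replicate 2. The gene tna, identified through its genetic interaction with brm, had 14 peaks, the strongest at 585.7 with 349.4 in replicate 1 and 194.1 in replicate 2. The strongest of the 6 peaks of tara, at 434.2, had 229.6 in replicate 1 and 213.8 in replicate 2. The strongest peaks of Mi-2, tna and tara had the word. Of the other Brahma-complex genes, e(y)3 had 3 peaks, the highest at 235.2, and Snr1, Bap55, Bap60, Bap111, Bap170 and polybromo had none. Among genes for subunits of ISWI complexes, Chrac-16 had 1 peak, of 25.4, as Caf1-55 did, and Nurf-38 and Chrac-14 had none.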

How the data were processed

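Per the file headers (dm6), the authors deposited a thresholded and a ranked peak list for each of the 2 replicates and 2 further pairs made from both. Each call carries a deposited signal value of unstated scale, and the deposited ranked lists give the −log10 of the global irreproducible discovery rate (IDR) in column 12, of at least 2 for every thresholded peak (IDR at most 0.01). IDR measures how well ranks repeat between data sets. Fragments were 200 to 800 bp long, per the labels. The sources used here do not give the aligner, the peak caller or the read depth, so no interval needs depth. Intervals are exact binomial ones for counting error only, and they treat peaks or clusters of the same gene as independent.

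Calls were assigned by summit to genes of Ensembl release 115, with 2 kb on each side. Transcript starts counted within 500 bp, and words within 50 bp of a summit. Every one of the 10 genes is named, with its 3 strongest conservative peaks, as are the 4 strongest of a wider list. The genes and lists were chosen with earlier results of these data known. All values are descriptions, with no test between conditions, since there is 1 group. The scripts were tested on simulated data. Tables were handled with pandas 2.3.3 under Python 3.11.15, intervals computed with scipy 1.17.1 and plots drawn with matplotlib 3.10.9.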

Additional observations from a re-analysis of the deposited data

How the results depend on the processing

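Of 49 alternative values for 7 results, 44 stayed close to the value reported. Close meant counts within 1.5 times, shares within the 95% interval, and the median signal value within 34.6, the SD of the replicate medians. Some values had little room to move. Merging summits within 100 bp left the same 42 peaks. The count of genes with a peak, 8 of 10, could leave its limit only downward. The limit of 34.6 came from replicate medians that it also judged. With the gene alone and no flank, 5 of the 10 genes had a conservative peak in place of 8, since the peaks of ash1, brm and Iswi lie outside the gene. Taking the peaks from 1 replicate list, the number of peaks was 27 without replicate 1 and 42 without replicate 2, the genes with a peak 7 and 8, the median signal value 119.0 and 70.03, the share with the word 51.9% and 54.8%, and the share near a start 37.0% and 31.0%. These 2 medians are not directly comparable with the conservative median of 127.1. At the strongest peak of tou, for example, the conservative value was 2247, against 1268 in replicate 1 and 979.5 in replicate 2. At a −log10 IDR of 3 or more, 28 peaks in 7 genes remained, Acf lost its peak, and the median signal value was 196.9. The count of 28 lay at the limit of 1.5 times and was taken as close. Matched to the ranked list of replicate 2, 85.7% of replicate 1 peaks had a partner. Adding the calls that the thresholded list lacks, chosen after seeing the data, gave 46 peaks in 9 genes. No paired analysis was possible because there is 1 group. Read depth, the control and the scale of the signal value are unknown here, so the absence of a peak at E(bx) or mor sets no limit on binding.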
